A study of Homo sapiens with 12 samples.

Results

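TBX2 and TBX10 are 2 genes of the T-box family, and in a human melanoma cell line both had higher RNA levels with the MNK inhibitor SEL201, higher still with the BET inhibitor OTX015 and the highest mean with both agents. They are 2 of the 8579 genes in the deposited count table. They were chosen by their measured levels across all groups of this experiment, so these levels and their differences are given as a description, without a test. The RNA came from A375 cells, a long-established human melanoma line with an activating BRAF mutation, in 12 libraries. Cells were cultured for 72 hours with SEL201 at 2.5 µM and OTX015 at 50 nM together (COMBO), with OTX015 at 50 nM, with SEL201 at 2.5 µM, or with neither (UNTREATED, whose treatment label is DMSO, a solvent for drugs). Each of the 4 groups has 3 libraries. A single cell line limits every group as a model of melanoma.

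T-box proteins are transcription factors that bind DNA through a conserved domain, the T-box, and direct cell fate in the embryo. TBX2 is mainly a repressor. It is known for holding back genes of cell cycle arrest, which lets cells escape senescence, and in the melanocyte lineage it has been reported as a target of MITF, the lineage's master regulator. TBX10 is a relative of TBX1 about which little is known. In the mouse, misplaced expression of Tbx10 gives cleft lip and palate. MNK1 and MNK2 phosphorylate the translation factor eIF4E, and BET proteins bind acetylated histones and drive transcription.

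The transcripts of TBX2 and TBX10 share only short runs of identical bases. The stretch below is coding sequence around the longest run of bases that the TBX2 and TBX10 transcripts share in GENCODE v29. The capitals mark this run of 17 bases. The window has 78 identical positions among 107 (72.9%), and it was chosen for the shared run, so this share does not stand for the rest of the genes.
TBX2: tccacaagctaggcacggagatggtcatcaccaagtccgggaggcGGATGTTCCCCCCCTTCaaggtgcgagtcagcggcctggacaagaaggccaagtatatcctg
TBX10: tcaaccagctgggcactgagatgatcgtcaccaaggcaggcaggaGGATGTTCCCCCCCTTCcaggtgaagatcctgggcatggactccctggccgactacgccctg
Over the 21 pairs among the 7 T-box genes in the table, the longest shared run was 11 to 21 bases. Reads here were 150 bases long, so no pair of these transcripts shares a stretch as long as a read.

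TBX2 had 620, 563 and 659 CPM (counts scaled to a common library total) in COMBO libraries 1 to 3, and 561, 477 and 528 CPM in the OTX015 libraries. It had 425, 401 and 404 CPM in the SEL201 libraries, against 232, 209 and 189 CPM in UNTREATED. The 4 groups stood in the order COMBO, OTX015, SEL201 and UNTREATED, and no group overlapped the next. The gap between COMBO and OTX015 was narrow: the lowest COMBO library, at 563 CPM, was just above the highest OTX015 library, at 561 CPM. The means were 614 ± 48.2 CPM in COMBO, 522 ± 42.1 in OTX015, 410 ± 12.9 in SEL201 and 210 ± 21.4 in UNTREATED (SD, n = 3 each). These levels rest on 3811 to 14393 counts per library. In these bulk libraries, more cells that express a gene and more RNA per cell cannot be told apart.

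TBX10 had 384, 468 and 462 CPM in the COMBO libraries and 308, 389 and 334 CPM in the OTX015 libraries. It had 149, 193 and 189 CPM in the SEL201 libraries, against 87.1, 89.1 and 93.7 CPM in UNTREATED. The order of the groups was that of TBX2, but COMBO and OTX015 overlapped, since OTX015 library 2 was above COMBO library 1. The means were 438 ± 46.9 CPM in COMBO, 344 ± 41.5 in OTX015, 177 ± 24.3 in SEL201 and 90 ± 3.36 in UNTREATED (SD, n = 3 each), from 1888 to 10128 counts per library. In COMBO, OTX015 and SEL201, library 1 was the lowest of its group for TBX10, while for TBX2 it was the lowest in none of them.

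**Figure D1:**
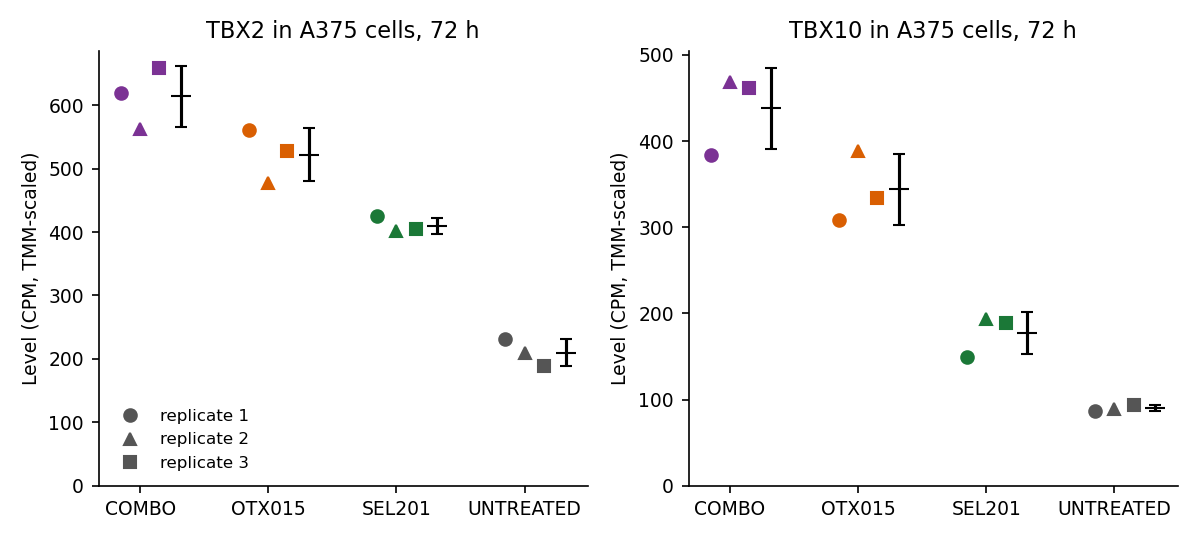
Level of TBX2 (left) and TBX10 (right) in CPM for each library, with COMBO, OTX015, SEL201 and UNTREATED from left to right. Points are libraries, with the shape giving the replicate number, and the bars are the mean and SD; both genes are lowest in UNTREATED and highest on average in COMBO, and COMBO overlaps OTX015 for TBX10 alone.

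With SEL201, both genes were about equally far from UNTREATED. The log2 difference was 0.97 (SE 0.08) for TBX2, a 1.95-fold higher level, and 0.98 (SE 0.11) for TBX10, a 1.97-fold higher level. Both lay among the most raised genes of the table, with TBX10 in place 17 and TBX2 in place 20 of 8579. For both genes, all 3 SEL201 libraries were above all 3 UNTREATED libraries, which was so for 18% of all genes. A rise of at least 2-fold was reached by 0.14% of genes in this comparison, and both stood just under that line.

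With OTX015, TBX10 was further from UNTREATED than TBX2 was. TBX10 differed by a log2 of 1.93 (SE 0.11), or 3.82-fold, and took place 6 of 8579. TBX2 differed by 1.31 (SE 0.08), or 2.49-fold, in place 28. Both groups of OTX015 values were clear of UNTREATED, as for 28% of all genes, and a 2-fold rise was found for 0.863%. Set against SEL201 directly, OTX015 gave a log2 difference of 0.96 (SE 0.10) for TBX10 and 0.35 (SE 0.08) for TBX2, and for both genes all 3 OTX015 libraries were above all 3 SEL201 libraries (18.9% of all genes).

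With both agents, TBX10 differed from UNTREATED by a log2 of 2.28 (SE 0.11), a 4.87-fold higher level in place 9 of 8579, and TBX2 by 1.55 (SE 0.08), a 2.93-fold higher level in place 52. A 2-fold rise was found for 2.03% of genes here, and 30.6% had all COMBO libraries above all UNTREATED libraries. Most of this difference was present with OTX015 alone. Adding SEL201 to OTX015 went with a log2 difference of 0.35 (SE 0.10) for TBX10 and 0.23 (SE 0.07) for TBX2. Within each replicate number the COMBO library was above its OTX015 counterpart for both genes, by 1.25-, 1.2- and 1.39-fold for TBX10 and by 1.11-, 1.18- and 1.25-fold for TBX2. The share of all genes that were higher within each replicate number was not computed. For TBX2, though not for TBX10, all 3 COMBO libraries were above all 3 OTX015 libraries, which was so for 12.2% of all genes. Adding OTX015 to SEL201 went with a larger difference, of 1.31 (SE 0.10) for TBX10 and 0.58 (SE 0.08) for TBX2, with no overlap for either (23.4% of all genes).

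The combined change of both genes was smaller than the sum of the single-agent changes on the log2 scale. This interaction was -0.73 (SE 0.11) for TBX2 and -0.63 (SE 0.15) for TBX10, in places 12 and 24 from the lowest of 8579, where the median of all genes was -0.006. By replicate number it was -0.73, -0.70 and -0.78 for TBX2 and -0.46, -0.85 and -0.55 for TBX10. The genes most like each in pattern, given below, also had interactions under 0. In CPM the values of TBX2 and TBX10 parted, though the difference between the genes was not tested. TBX2 gained 312 CPM with OTX015 and 200 CPM with SEL201, or 512 CPM in all, against a gain of 405 CPM in COMBO. COMBO was thus 108 CPM below the added level (difference -108 CPM, SE 39.7), with differences of -134, -106 and -83.6 CPM by replicate number. TBX10 gained 254 CPM with OTX015 and 87.2 CPM with SEL201, or 341 CPM in all, and 348 CPM in COMBO. The difference from the added level was 7.27 CPM (SE 38.8), and by replicate number it was 13.9, -25 and 33 CPM. TBX2 therefore lay below the added level in CPM for each replicate number, while TBX10 lay on either side of it, and both lay below the level at which single-agent folds multiply, which was 1020 CPM for TBX2 and 677 CPM for TBX10.

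**Figure D2:**
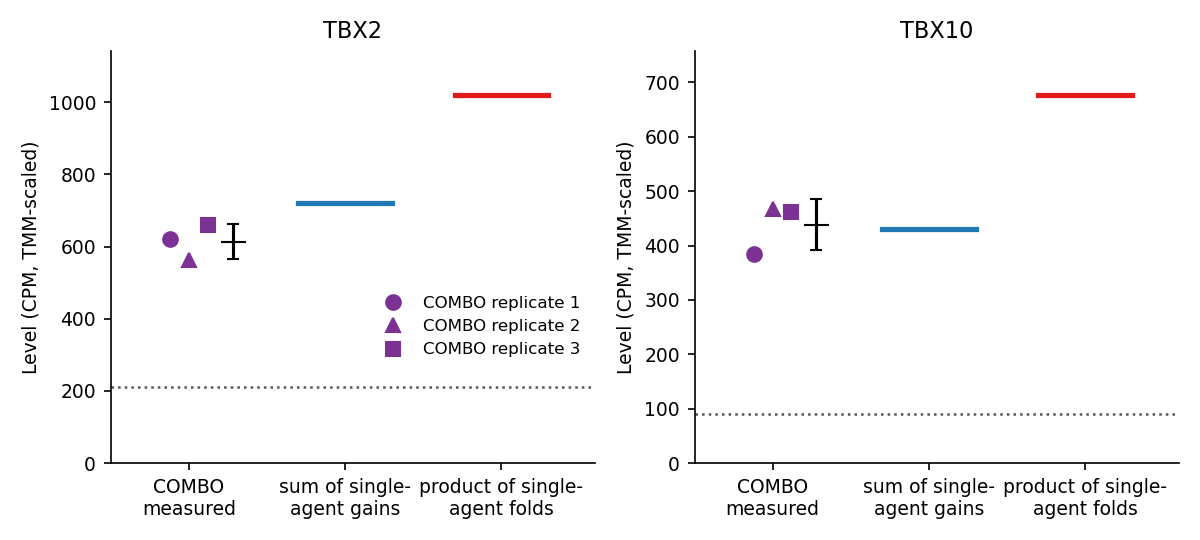
COMBO levels of TBX2 (left) and TBX10 (right) in CPM, with the mean and SD as bars, beside the level given by adding both single-agent gains to UNTREATED (blue) and the level given by multiplying both single-agent folds (red); the dotted line is the UNTREATED mean. TBX2 in COMBO is below both levels, and TBX10 in COMBO surrounds the level of 431 CPM from added gains.

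Levels of different genes can be set side by side only per length. With the longest protein-coding transcript in GENCODE v29 as the length, 3339 bases for TBX2 and 1548 bases for TBX10, UNTREATED cells had 62.8 ± 6.4 CPM per kb of TBX2 and 58.1 ± 2.17 CPM per kb of TBX10 (SD, n = 3). In SEL201 the levels per kb were 123 ± 3.85 for TBX2 and 114 ± 15.7 for TBX10, and in OTX015 156 ± 12.6 for TBX2 and 222 ± 26.8 for TBX10. In COMBO they were 184 ± 14.4 for TBX2 and 283 ± 30.3 for TBX10. The gene with the higher level per length was thus TBX2 in UNTREATED and SEL201, by less than the spread between libraries, and TBX10 in OTX015 and COMBO. The annotation behind the counts is not given in the sources used here, so the lengths that apply could differ.

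The other T-box genes in the table moved in both directions. Of 17 family members listed, 7 were in the table, and the other 5 besides TBX2 and TBX10 were tested with edgeR over all genes. In COMBO against UNTREATED 2 of these 5 were higher and 2 lower, with a median log2 difference of 0.04 beside 0.002 for all genes. By the same test 28.3% of all genes were higher and 29.6% lower in this comparison. TBX19, the T-box factor of pituitary corticotroph cells, had 15.6, 18.9 and 14.9 CPM in COMBO, against 6.48, 8.71 and 12 CPM in UNTREATED, and its log2 difference was 0.87 (SE 0.18, edgeR adjusted p = 0.00069). EOMES, a T-box factor of early embryos and of T and NK cells, had 17.8, 18.8 and 23.6 CPM in COMBO, against 12.4, 13.3 and 14.7 CPM in UNTREATED (log2 difference 0.57, SE 0.13, edgeR adjusted p = 0.0014). Both sets of groups were free of overlap.

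TBX18 and TBX6 went the other way. TBX18, a developmental repressor of the same subfamily as TBX10, had 114, 110 and 125 CPM in COMBO, against 146, 153 and 152 CPM in UNTREATED, with a log2 difference of -0.37 (SE 0.05, edgeR adjusted p = 3.1e-05). TBX6, which acts in paraxial mesoderm, had 4.05, 6.52 and 5.16 CPM in COMBO, against 9.74, 8.63 and 7.39 CPM in UNTREATED (log2 difference -0.71, SE 0.20, edgeR adjusted p = 0.0081), but the call was lost without the replicate 1 libraries of all groups (adjusted p = 0.11). TBX20, a cardiac T-box factor, had a log2 difference of 0.04 (edgeR adjusted p = 0.65).

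In OTX015 against UNTREATED 2 of the 5 were higher and 2 lower, beside 23.3% and 24.7% of all genes. These were TBX19 (log2 difference 0.71, edgeR adjusted p = 0.0042) and EOMES (0.32, adjusted p = 0.049), TBX18 (-0.34, adjusted p = 9.9e-05) and TBX6 (-0.78, adjusted p = 0.0059). The call of EOMES was lost when only OTX015 and UNTREATED were fitted (adjusted p = 0.056), without UNTREATED library 1 (0.15) or 2 (0.11), without OTX015 library 2 (0.12) or 3 (0.15), and without the replicate 1 (0.12), replicate 2 (0.25) or replicate 3 (0.059) libraries of all groups. That of TBX19 was lost without the replicate 1 libraries of all groups (0.091). TBX20 had a log2 difference of 0.18 in OTX015 (edgeR adjusted p = 0.067). Once a term for the replicate number, the replicate block, was added it passed (edgeR adjusted p = 0.034). In SEL201 against UNTREATED 0 of the 5 passed, with the lowest adjusted p at 0.15 for TBX6 (0.05 with the replicate block, just past the threshold), and 10.1% of all genes were higher and 11.1% lower. TBX19 passed there without UNTREATED library 3 (log2 difference 0.59, edgeR adjusted p = 0.019) and without the replicate 3 libraries of all groups (0.021).

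**Figure D3:**
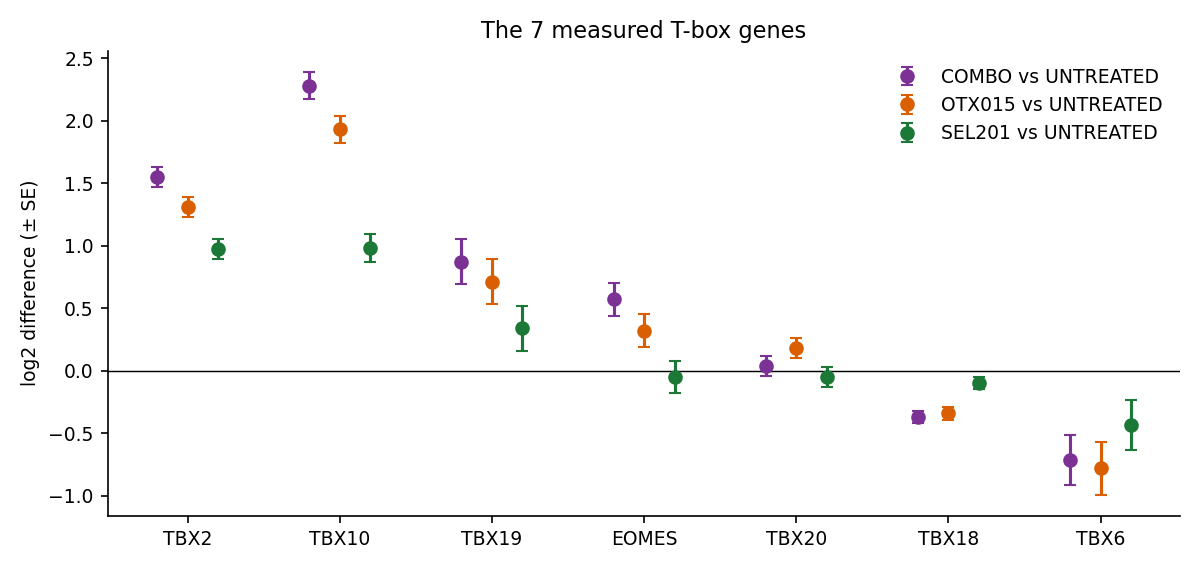
log2 difference from UNTREATED for the 7 measured T-box genes, with COMBO, OTX015 and SEL201 from left to right within each gene and bars of 1 SE. TBX2 and TBX10 are the highest in all 3 comparisons, while TBX18 and TBX6 are below 0 in all 3.

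The gene next to TBX10 on the chromosome was higher in all treated groups as well. The 3 nearest measured protein-coding genes on each side of TBX2 and of TBX10 were taken from RefSeq's gene order on GRCh38.p14, a later build than the hg19 named by the submitters. NUDT8, which encodes a nudix hydrolase, is next to TBX10 on chromosome 11 with no protein-coding gene between them. In GENCODE v29 it lies on the same strand, downstream of TBX10. NUDT8 had 261, 338 and 325 CPM in COMBO, 216, 297 and 263 CPM in OTX015 and 131, 168 and 161 CPM in SEL201, against 91, 94.5 and 93.5 CPM in UNTREATED. Its means stood in the group order of TBX10, and again COMBO and OTX015 overlapped and library 1 was the lowest of each treated group. COMBO against OTX015 did not pass for NUDT8 (log2 difference 0.25, SE 0.12, edgeR adjusted p = 0.23).

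The log2 difference of NUDT8 from UNTREATED was 1.73 in COMBO (SE 0.12, edgeR adjusted p = 3.3e-08), 1.48 in OTX015 (SE 0.12, adjusted p = 3.3e-07) and 0.72 in SEL201 (SE 0.12, adjusted p = 0.00082). All 3 differences were smaller than those of TBX10. The count of NUDT8 divided by that of TBX10 was 0.68, 0.722 and 0.703 in the COMBO libraries, 0.701, 0.764 and 0.787 in OTX015 and 0.875, 0.872 and 0.848 in SEL201, against 1.04, 1.06 and 0.998 in UNTREATED. This ratio did not overlap between UNTREATED, SEL201 and the groups with OTX015, so the counts of the neighbours did not move in a fixed proportion. Whether transcripts span both genes was not measured by these counts per gene.

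The other neighbours of TBX10 had smaller or opposite differences. TMEM134 was higher in COMBO by a log2 of 0.33 (edgeR adjusted p = 0.00054), UNC93B1, a chaperone of endosomal Toll-like receptors, fell by 0.75 (adjusted p = 2.8e-08) and the aldehyde dehydrogenase gene ALDH3B1 fell by 1.28 (adjusted p = 8.3e-08). PTPRCAP (log2 difference -0.17, edgeR adjusted p = 0.45) and TCIRG1 (0.03, adjusted p = 0.77) did not pass. Around TBX2, on chromosome 17, changes were small. BCAS3, the nearest measured gene on one side, and PPM1D, a phosphatase gene of the p53 pathway, were each higher in COMBO by 0.22 (edgeR adjusted p = 0.0034 and 0.00069). RNFT1, BRIP1, INTS2 and METTL2A had log2 differences of 0.02 to 0.07 and did not pass (edgeR adjusted p = 0.2 to 0.68). Between TBX2 and BRIP1, the nearest measured gene on the other side, lie 2 protein-coding genes that were not in the table.

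**Figure D4:**
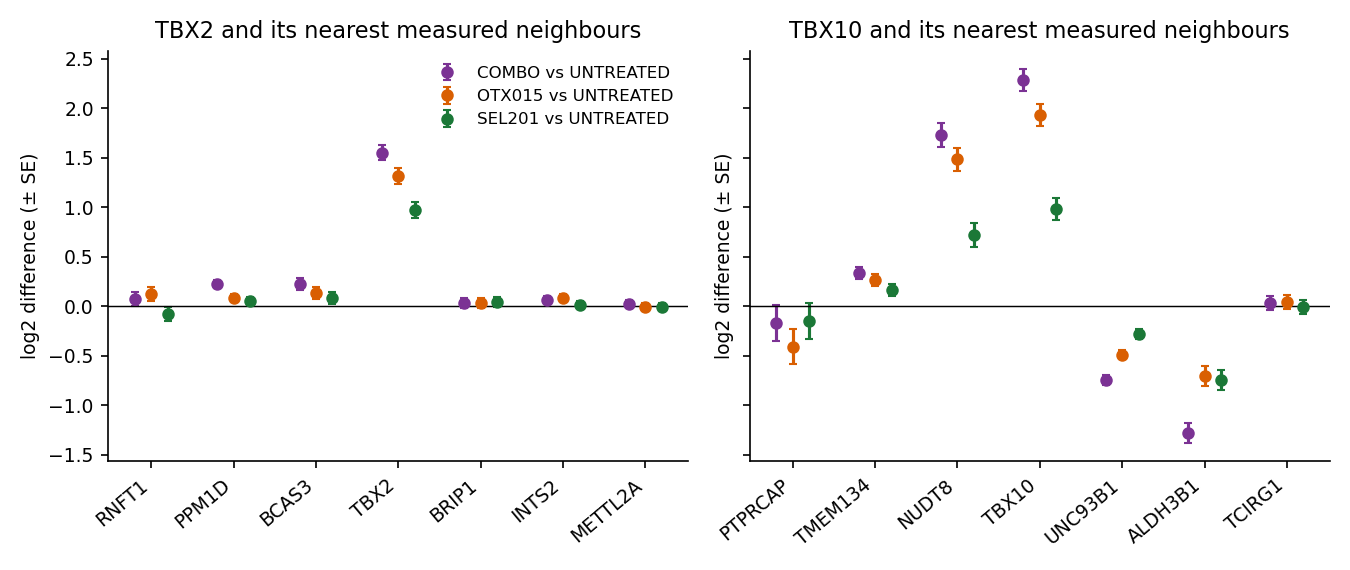
log2 difference from UNTREATED for TBX2 (left) and TBX10 (right) among the 3 nearest measured protein-coding genes on each side, in chromosomal order, with COMBO, OTX015 and SEL201 from left to right within each gene and bars of 1 SE. No measured neighbour of TBX2 is past 0.22 in COMBO, while NUDT8 beside TBX10 reaches 1.73.

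TBX2-AS1, a noncoding RNA gene on the opposite strand that overlaps TBX2 in GENCODE v29, is given too, chosen after its values were seen. It had 12.6, 12.9 and 10.4 CPM in COMBO, 15.5, 10.8 and 12.8 CPM in OTX015 and 13.3, 12.9 and 15 CPM in SEL201, against 9.26, 10.1 and 10.2 CPM in UNTREATED. Every treated library was above the UNTREATED libraries, but the order of TBX2 was not seen: SEL201 had the highest mean and COMBO the lowest of the treated groups. The log2 difference was 0.48 in SEL201 (edgeR adjusted p = 0.028), 0.40 in OTX015 (0.032) and 0.28 in COMBO (0.11). Both calls were lost on leaving out libraries, with adjusted p up to 0.16 for SEL201 and 0.4 for OTX015, in both cases without the replicate 1 libraries of all groups, and for OTX015 also when only the compared groups were fitted (0.055). The counting's strand setting is not given in the sources used here, so reads of TBX2 and of its antisense partner cannot be told apart with certainty.

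Genes whose pattern over the 12 libraries was most like that of each T-box gene were ranked by the root mean square difference of log2 CPM after subtracting each gene's mean. For TBX2 the nearest 5 were SEMA3G, a secreted semaphorin gene (0.122), CHRM3, a muscarinic acetylcholine receptor gene (0.149), MMP15, a membrane-bound metalloproteinase gene (0.149), the galactosyltransferase gene B3GALT1 (0.151) and EPB41L5 (0.153). SEMA3G had 252 ± 25.3 CPM in COMBO, 199 ± 4.46 in OTX015 and 163 ± 13.6 in SEL201, against 92.4 ± 8.95 CPM in UNTREATED (SD, n = 3 each). The interaction on the log2 scale was -0.48 for SEMA3G, -0.25 for CHRM3 and -0.37 for MMP15. For B3GALT1 it was -0.32 and for EPB41L5 -0.35. This value is part of the pattern by which these genes were ranked. TBX10 itself was in place 406 of 7506 genes ranked by likeness to TBX2, at 0.39.

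Among the 5 nearest to TBX10 were SESN3, a sestrin gene of the stress response (0.119), the synaptotagmin gene SYT12 (0.198), its neighbour NUDT8 (0.219) and TPPP, a tubulin polymerization gene (0.253). SESN3 had 163 ± 3.98 CPM in COMBO, 113 ± 4.28 in OTX015 and 64.6 ± 3.88 in SEL201, against 32.5 ± 1.36 CPM in UNTREATED (SD, n = 3 each). The log2 interaction was -0.47 for SESN3, -0.76 for SYT12, -0.47 for NUDT8 and -0.31 for TPPP. Over group means instead of libraries, 1 of the 5 for TBX2 (SEMA3G) and 2 of the 5 for TBX10 (SESN3 and SYT12) were again among the nearest 5. The ranking below the first place thus depended on how single libraries deviated.

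**Figure D5:**
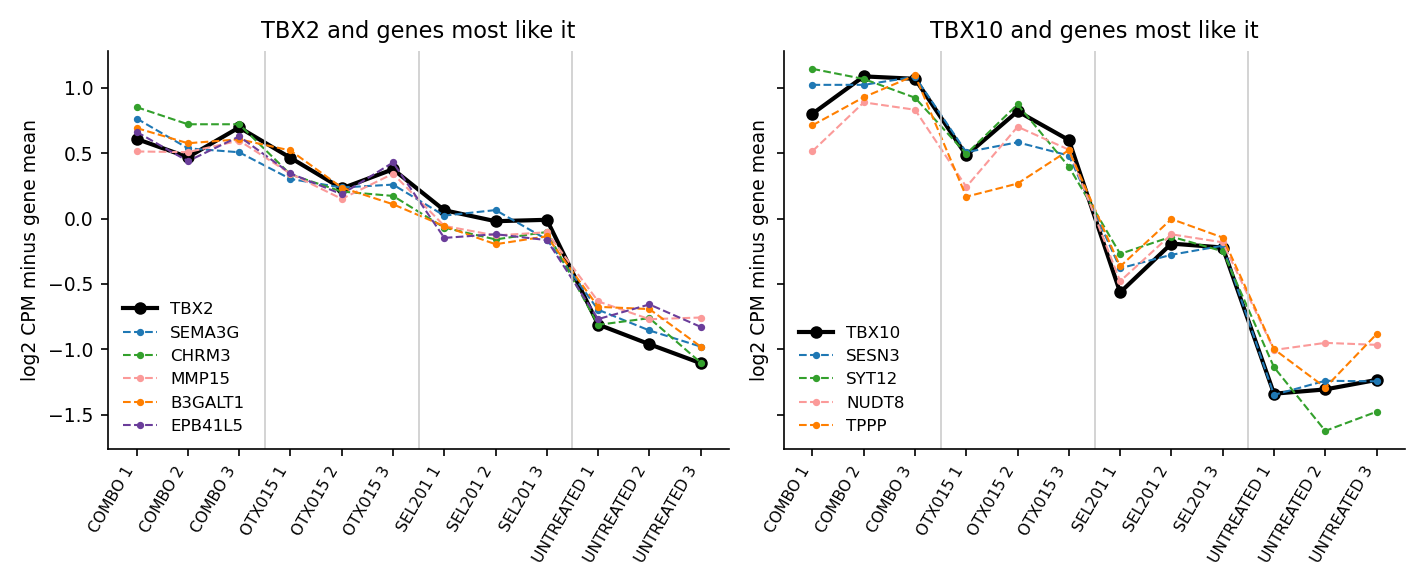
log2 CPM minus the gene's mean in each of the 12 libraries for TBX2 (left, black) and TBX10 (right, black) with genes among the 5 most like each (colours; 5 for TBX2 and 4 for TBX10), ordered COMBO, OTX015, SEL201 and UNTREATED; lines join libraries only to make a gene traceable. The nearest gene differs from its T-box gene by 0.122 (SEMA3G) and 0.119 (SESN3) on average.

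The mean levels of EGR1 stood in the same group order as those of TBX2. Over group means EGR1 was among the 5 genes most like TBX2. Unlike TBX2, it overlapped between OTX015 and SEL201 (log2 difference 0.27, SE 0.10, edgeR adjusted p = 0.064). In COMBO it differed from the level of added single-agent gains by -2.16 CPM (SE 55.5), against -108 CPM (SE 39.7) for TBX2. EGR1, an immediate-early zinc finger factor that has been reported to bind TBX2 in breast cancer cells, had 590, 667 and 527 CPM in COMBO, 445, 446 and 374 CPM in OTX015 and 334, 406 and 306 CPM in SEL201, against 178, 166 and 176 CPM in UNTREATED. It rose in COMBO, OTX015 and SEL201 against UNTREATED, with log2 differences of 1.78 (SE 0.10, edgeR adjusted p = 5.5e-09), 1.28 (SE 0.10, adjusted p = 2.7e-07) and 1.01 (SE 0.10, adjusted p = 1.6e-05). MITF was lower in the treated groups, the opposite direction to TBX2. It had 155, 158 and 149 CPM in COMBO, against 169, 187 and 165 CPM in UNTREATED, and was lower by 0.17 in COMBO (edgeR adjusted p = 0.03), 0.24 in OTX015 (adjusted p = 0.0071) and 0.24 in SEL201 (adjusted p = 0.014). In COMBO this call was lost without UNTREATED library 2 (0.15) or COMBO library 1 (0.058) or 3 (0.089), and without the replicate 1 (0.12) or replicate 2 (0.11) libraries of all groups. In SEL201 it was lost without UNTREATED library 2 (0.074) or SEL201 library 1 (0.059) or 3 (0.061), and without the replicate 1 libraries (0.15).

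In all, 11 of 23 such regulators and partners were measured, and in COMBO against UNTREATED 3 were higher and 5 lower, with a median log2 difference of -0.09 beside 0.002 for all genes. Of all genes 28.3% were higher and 29.6% lower in this comparison, so the higher share of the list was near that of all genes. PAX3, a melanocyte lineage factor, rose by 0.22 (edgeR adjusted p = 0.0018). The retinoic acid receptor genes RARB and RARA fell by 1.49 (adjusted p = 1.7e-07) and 0.38 (adjusted p = 5.7e-05), and BMP2, a ligand of the pathway that induces TBX2 in the embryonic mouse heart, fell by 0.49 (adjusted p = 7.6e-05). Of 29 melanocyte lineage genes, 18 were measured, of which 5 were higher and 6 lower (median 0.11). Both shares were near those of all genes, 28.3% higher and 29.6% lower, and the members named next are single genes. Among them S100B rose by 0.94 (edgeR adjusted p = 3.4e-06) and MLANA by 0.64 (adjusted p = 0.0069), beside PAX3 above. GPNMB fell by 1.06 (edgeR adjusted p = 1.3e-08), MLPH by 2.02 (adjusted p = 5.2e-08), RAB27A by 0.54 (adjusted p = 6.1e-05) and QPCT by 0.35 (adjusted p = 0.00085).

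Only 2 of 19 reported target genes of TBX2 or of its close relative TBX3 were measured, and both were lower in COMBO, as were 29.6% of all genes. SHISA3, an antagonist of Wnt and FGF signalling that Tbx2 represses in the embryonic mouse lung, had 7.07, 5.96 and 5.56 CPM in COMBO, 11.2, 8.48 and 12.8 CPM in OTX015 and 15.4, 17.7 and 16 CPM in SEL201, against 29.7, 25.7 and 27.7 CPM in UNTREATED. The groups fell in the reverse of the TBX2 order without overlap, with log2 differences of -2.15 in COMBO (SE 0.15, edgeR adjusted p = 2.9e-08), -1.36 in OTX015 (SE 0.14, adjusted p = 3.1e-06) and -0.76 in SEL201 (SE 0.14, adjusted p = 0.0014). In SEL201 the call was lost without the replicate 1 libraries of all groups (0.07). The share of all genes that fell in this order without overlap was not computed. CDKN2A, which encodes the arrest proteins p16 and ARF, had 15.1, 12.8 and 17.7 CPM in COMBO, against 17.9, 21 and 20.2 CPM in UNTREATED (log2 difference -0.38, edgeR adjusted p = 0.015). It did not pass in OTX015 (log2 difference -0.24, edgeR adjusted p = 0.13) or SEL201 (-0.18, adjusted p = 0.32). That call was lost without UNTREATED library 2 (0.06), without COMBO library 2 (0.081) and without the replicate 1 (0.062) or replicate 2 (0.24) libraries of all groups.

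A list of 29 genes of cell cycle arrest and senescence also held genes of cyclins and CDKs, which are not arrest genes. Of these 29, 6 were measured, and in COMBO 1 was higher and 4 lower (median -0.26). Of all genes 28.3% were higher and 29.6% lower. The 4 include the cyclin gene CCNE1. The calls of CDKN2A and CCNE1, 2 of the 4, were lost on leaving out libraries. CDKN1C, a CDK inhibitor gene, fell to 73.5, 78.9 and 60.7 CPM in COMBO, against 200, 191 and 180 CPM in UNTREATED (log2 difference -1.42, SE 0.10, edgeR adjusted p = 3e-08). CDKN2D, another CDK inhibitor gene, rose by 0.54 (edgeR adjusted p = 9e-06). CCNE1, a cyclin E gene, was lower by 0.13 (edgeR adjusted p = 0.017), a call lost without UNTREATED library 3 (0.073), COMBO library 2 (0.085) or the replicate 1 (0.094) or replicate 2 (0.12) libraries of all groups. CCNE2 did not pass (log2 difference -0.06, adjusted p = 0.32).

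The RefSeq promoter table held TBX10 and not TBX2. The window shown runs from 250 bases before to 50 bases after the TBX10 start site, on the minus strand at chr11:67639714-67640013 of GRCh38.p14, and is printed because TBX10 had the larger change in COMBO. The capitals mark its only match to TGACGT, the core of the cyclic AMP response element, which lies on the opposite strand and so reads ACGTCA.
TBX10: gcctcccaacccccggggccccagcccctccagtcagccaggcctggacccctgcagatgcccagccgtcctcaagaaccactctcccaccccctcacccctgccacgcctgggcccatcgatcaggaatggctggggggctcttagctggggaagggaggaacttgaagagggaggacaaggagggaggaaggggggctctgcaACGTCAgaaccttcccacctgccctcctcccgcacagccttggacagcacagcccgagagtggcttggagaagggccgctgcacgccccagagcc
This core was found in 7.98% of the 35116 promoter windows of the table. The window had 2 matches to the open E-box CANNTG, found in 68.7% of windows. It had no match on either strand to the T-box element AGGTGTGA (0.98% of windows), its core GGTGTG (16.8%), the E-box CACGTG (7.26%), the M-box TCATGTG (2.92%), the AP-1 site TGANTCA (7.71%), the GC box GGGCGG (45%) or the TATA box TATAAA (11.5%). CACGTG is a case of CANNTG, and GGTGTG lies within AGGTGTGA. Its GC content was 67.7%, beside a median of 58.7% over all windows.

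Totals over the measured genes were 15146071 to 24111541 counts per library and are not the sequencing depth, since the table used here holds only genes with mean counts from 78.67 to 9158.7. The labelled lineage could be checked in part: 5 of 9 melanocyte markers were in the table (MITF, PAX3, PMEL, MLANA and S100B). They summed to 398 to 434 CPM in COMBO, 385 to 401 in OTX015 and 351 to 391 in SEL201, against 347 to 391 CPM in UNTREATED. These markers did not move together. Mean levels in COMBO against UNTREATED were 103 and 54.1 CPM for S100B, 151 and 130 for PAX3, and 154 and 173 for MITF. PMEL and MLANA were low, with means of 4.87 and 4.19 CPM in UNTREATED and 5.5 and 6.58 CPM in COMBO. MLANA was called higher in COMBO (log2 difference 0.64, edgeR adjusted p = 0.0069), and PMEL did not pass (0.19, adjusted p = 0.45). The epithelial markers in the table, KRT8 and CLDN4 (2 of 7 listed), summed to 187 to 207 CPM in COMBO, 258 to 271 in OTX015 and 311 to 315 in SEL201, against 475 to 502 CPM in UNTREATED, the reverse of the order of TBX2 and TBX10. The summed level of the 4 fibroblast markers measured of 5 listed ran the same way (63.8 to 65.6 CPM in COMBO, 74 to 80.8 in OTX015 and 99.2 to 111 in SEL201, against 124 to 163 CPM in UNTREATED), as did the blood cell marker LYZ (1 of 4 listed; 19.5 to 22.6, 21.3 to 24.3 and 29.3 to 32.4 CPM in COMBO, OTX015 and SEL201, against 39.2 to 50.2 CPM in UNTREATED). Among the fibroblast markers COL1A1 did not follow this order between the treated groups, with means of 8.94 CPM in COMBO, 8.92 in OTX015 and 9.06 in SEL201, against 15 CPM in UNTREATED. The endothelial marker KDR (1 of 3 listed) did not fall in this order, with 101 to 157 CPM in COMBO, 70.6 to 121 in OTX015 and 66.1 to 109 in SEL201, against 81 to 142 CPM in UNTREATED. The 3 measured of 6 markers of undifferentiated or invasive melanoma summed to 225 to 260 CPM in COMBO, 210 to 235 in OTX015 and 180 to 222 in SEL201, against 228 to 321 CPM in UNTREATED. None of these markers in the table was at 0, and the other markers of each list were not analysed here. The part of any such change in the values of TBX2 and TBX10 was not tested.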

How the data were processed

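The authors deposited raw counts for each gene in a single table of 12 library columns. Per the labels' protocols, libraries were stranded and poly(A)-selected and were read from both ends for 150 bases. The submitters' processing notes list STAR 2.5.4b, SAMtools 1.9, featureCounts, FastQC, Trimmomatic and DESeq2, and the build hg19, without saying which step used what. Which annotation, strand setting or gene filter was used is not given in the sources used here. Genes outside this table were not analysed here, and CPM values are relative to its 8579 genes.

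edgeR 4.0.16 (R 4.3.3) was used for the main fit, a quasi-likelihood model (glmQLFit, glmQLFTest) of group means on all 12 libraries after TMM scaling. Its filter on low counts, filterByExpr, kept all 8579 genes. There were 7 contrasts, each with Benjamini-Hochberg adjustment over all genes and a threshold of 0.05. SE is the log2 difference divided by the square root of F. The steps were tested on simulated data. The fit was repeated with RLE scaling, with DESeq2 1.42.0, without a filter, with a minimum of 5 CPM in 3 libraries, with a replicate block, on the compared groups alone and with libraries left out.

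TBX2, TBX10 and all lists were chosen with earlier results of these data known. Besides them the text names every measured T-box gene, the 5 genes most like each in pattern (clone-based and antisense names skipped, 0.1 CPM added before log2), the 3 nearest measured protein-coding neighbours on each side, and up to 6 members per list with the lowest p in COMBO against UNTREATED, plus MITF, EGR1, PAX3, CDKN2A and CDKN1C. Some genes that this rule names are not reported here.

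No label states that replicates were separate cultures. The p-values then measure only the spread among these samples, and that spread may be technical. Within a group, each pair of libraries differed beyond sampling noise (chi-square per degree of freedom of at least 6.34). Deviations from the group mean correlated across genes at 0.26 to 0.57 for the 18 pairs that share a number, against -0.46 to 0.19 for the 36 that do not. The numbers thus appear to pair the libraries, although no label says so, and the main fit has no block.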

Additional observations from a re-analysis of the deposited data

How the results depend on the processing

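TBX2 and TBX10 kept the sign of their log2 difference in all 7 contrasts under every alternative run. The one value that moved by more than the spread between libraries was the COMBO difference of TBX2 from UNTREATED, 1.43 without the replicate 3 libraries of all groups. On leaving out libraries the differences from UNTREATED ran from 0.9 to 1.05 (SEL201), 1.24 to 1.39 (OTX015) and 1.43 to 1.63 (COMBO) for TBX2, and from 0.9 to 1.09, 1.83 to 2.01 and 2.23 to 2.37 for TBX10. The interaction ran from -0.81 to -0.67 for TBX2 and from -0.74 to -0.51 for TBX10.

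Counts of called genes moved more. The replicate block gave 3180 calls for SEL201 against UNTREATED (1820 without it), 1908 for COMBO against OTX015 (593), 3414 for OTX015 against SEL201 (2018) and 579 for the interaction (24), for which DESeq2 gave 119. Leaving out libraries gave 664 to 1742 calls for SEL201 against UNTREATED, 1873 to 3263 for COMBO against SEL201, 50 to 607 for COMBO against OTX015, 625 to 1925 for OTX015 against SEL201 and 0 to 72 for the interaction. The 72 interaction calls came without the replicate 3 libraries of all groups, and the 0 without those of replicate 1 or of replicate 2. The fits with libraries left out have fewer samples, while the replicate block and DESeq2 used all 12 libraries. What caused these shifts was not tested.

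Among other named genes, values near 0 changed sign on leaving out libraries. EOMES in SEL201 ran from -0.131 to 0.018 (above 0 without UNTREATED replicate 3). In COMBO, TBX20 ran from -0.01 to 0.087 and was below 0 without UNTREATED replicate 1 or replicate 1 of all groups (-0.008). METTL2A ran from -0.009 to 0.05 and was below 0 without COMBO replicate 1 (-0.008) or replicate 1 of all groups. PTPRCAP ran from -0.322 to 0.013 and was above 0 without UNTREATED replicate 3. TCIRG1 ran from -0.032 to 0.129 and was below 0 without UNTREATED replicate 1 (-0.008) or 2, COMBO replicate 3 (-0.021) or replicate 2 of all groups (-0.014). Among the calls checked, the replicate block changed none other than TBX6 in SEL201 and TBX20 in OTX015. Most neighbours and list members were checked in COMBO against UNTREATED alone. Genes named only for likeness of pattern or as cell type markers were not checked. Fitting only the compared groups gives no interaction value, since that needs all 4 groups.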
